A study of Homo sapiens with 2 samples.

Results

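Hs578T is a human breast cancer line with mesenchymal features, and a minority of its cells carried transcripts of NEFL, which encodes the light chain of the neurofilaments of neurons. Of 1711 Hs578T cells that passed the filter, 402 (23.5%) had at least 3 UMIs of NEFL, 1062 (62.1%) had none and 247 had 1 or 2. The whole series held 17605 barcodes. The NEFL-positive cells were chosen by NEFL itself, so NEFL is described below and only the other genes were compared. A UMI is a unique molecular identifier and counts 1 captured transcript.

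The series profiled 6 human breast cancer lines, for which the labels give no treatment, by droplet-based 3′ single-cell RNA sequencing, to look for surface markers of subpopulations within such lines. Each line was stained with its own multiplexing oligo (CMO), and 2 pools of 3 lines were loaded. Hs578T (labelled p4) shared its capture with MDA-MB-436 and HCC38, and both NEFL groups come from the same culture, oligo and capture. With 1 culture there was no replicate, so no test was possible, and every interval below is a 95% interval that covers counting error only. A cell with 0 NEFL UMIs may still express the gene, because only part of a cell's transcripts is captured. The pairing of oligos and lines is not stated in the labels. All 7 Hs578T markers examined (PRRX1, TWIST1, COL3A1, THY1, ITGA11, COL1A1 and LUM) were highest in the CMO305 barcodes among the 3 oligos of the capture, and those barcodes are called Hs578T here. The CMO306 barcodes led all 5 HCC38 markers and the CMO304 barcodes all 5 MDA-MB-436 markers.

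The NEFL-positive cells were sequenced more deeply, with medians of 45718 UMIs and 6883 genes in each cell against 35527 and 6263 in NEFL-negative cells. Mitochondrial transcripts made up a median of 6.01% and 5.83%. Scrublet called 1 positive and 3 negative cells as doublets, and transcripts specific to another line of the capture marked 12 positive cells (2.99%) and 14 negative cells (1.32%) as mixed. Levels are given as CPM, the summed UMIs of a gene scaled to the total of its group, and a gene was measured where it reached 10 CPM in either group. No barcode sequence of these cells recurred within the capture, and 3 of all CMO305 barcode sequences recurred in the other capture.

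Neurofilaments are intermediate filaments that set the calibre of axons, and NEFL normally assembles with the medium and heavy chains. Smooth muscle cells and contractile fibroblasts instead carry actin bundles with ACTG2 and ACTA2 (smooth muscle actins), the actin binders CNN1 (calponin) and TAGLN (transgelin), and LMOD1, which nucleates actin filaments. Serum response factor drives many of these genes by binding the CArG box, with MYOCD or the MRTF proteins as coactivators. SERPINB2 encodes the inhibitor PAI-2 of the plasminogen activators.

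The promoters below are shown because both genes were among the 15 with the largest excess in NEFL-positive cells and hold a CArG box, as does HNMT, which is not shown. Each is the 250 bases before the RefSeq start on GRCh38.p14, read 5′ to 3′ on the gene's strand, with the box in capitals. ACTG2 lies at chr2:73892758-73893007 on the plus strand, and AKAP12, which encodes a scaffold for protein kinase A, at chr6:151239717-151239966 on the plus strand. MYLK, the myosin light chain kinase, at chr3:123620549-123620798 on the minus strand, is a contractile gene with the box whose level hardly differed between the groups.
ACTG2: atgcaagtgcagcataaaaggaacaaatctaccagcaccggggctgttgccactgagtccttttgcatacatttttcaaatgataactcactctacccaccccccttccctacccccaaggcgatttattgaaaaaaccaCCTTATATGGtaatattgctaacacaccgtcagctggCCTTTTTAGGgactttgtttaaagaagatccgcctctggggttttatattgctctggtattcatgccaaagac
AKAP12: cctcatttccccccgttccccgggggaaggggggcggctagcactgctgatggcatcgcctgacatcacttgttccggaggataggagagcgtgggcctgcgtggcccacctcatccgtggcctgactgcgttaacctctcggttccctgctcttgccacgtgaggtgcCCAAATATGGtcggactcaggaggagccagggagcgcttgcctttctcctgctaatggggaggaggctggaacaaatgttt
MYLK: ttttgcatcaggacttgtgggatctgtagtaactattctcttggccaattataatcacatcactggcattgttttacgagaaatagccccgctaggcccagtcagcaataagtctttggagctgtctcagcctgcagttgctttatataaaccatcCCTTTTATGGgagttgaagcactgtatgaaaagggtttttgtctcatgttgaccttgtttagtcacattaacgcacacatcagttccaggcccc

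The box was searched as CC, 6 bases of A or T, and GG, which reads the same on both strands, in the 250 bases before to 50 bases after each start. It stood in the promoter of 438 of 27305 genes (1.60%) and of 111 of 6807 measured genes with a promoter in the table (1.63%). Of 47 measured genes of a smooth muscle contractile list, 44 had a promoter in the table, and the box stood in 13 of these (29.5%). Of those 13 genes, 5 were at least 1.25-fold higher in NEFL-positive cells, as were 9 of the 31 without a box. Among all 8439 measured genes 829 (9.82%) were. The median log2 ratios were 0.14 with a box and 0.26 without. TAGLN had no promoter in the table and is missing from these counts. Of all 47 genes 17 were at least 1.25-fold higher, so the genes left out were among the higher ones. The boxes of ACTG2 begin 110 and 73 bases before the start and that of AKAP12 begins 81 bases before it. A match describes letters only and was not tested as a binding site.

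NEFL lies on chromosome 8 (chr8:24950955-24957110, minus strand, GRCh38). In the NEFL-positive cells its median was 9.5 UMIs per cell, the quartiles were 5 and 20, and the highest cell had 129. The summed level was 330.5 CPM (322.5 to 338.7). Just inside the rule were 50 cells with 3 UMIs and 35 with 4, and just outside were 77 cells with 2 and 170 with 1, so the groups are ranges cut from a continuous level. After every cell was thinned to 10000 UMIs, NEFL was seen in 84.1% of the positive cells, in 15.9% of the CMO304 cells and in 1.04% of the CMO306 cells, the other barcodes of the same capture. The CMO306 share is taken below as the background of that capture. The other capture had 0 NEFL UMIs in 9789 barcodes and 248 M UMIs. By the same count of 3 UMIs, 158 of 2097 CMO304 cells (7.53%) and 4 of 2393 CMO306 cells (0.167%) would be positive.

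Other neuronal genes were near 0 or went in either direction by less than 2-fold. NEFM, the medium chain encoded beside NEFL, was at 1.34 CPM in positive and 0.46 in negative cells. In cells with 1 to 2, 3 to 9, 10 to 29 and 30 or more NEFL UMIs, NEFM was at 0.81, 0.11, 1.13 and 4.71 CPM. NEFH, INA and PRPH, the other neurofilament-type chains, were at or below 0.12 CPM in both groups. STMN2 and ELAVL4, which mark neurons, had no UMI, and 3 UMIs would be 0.154 CPM in the positive and 0.0725 CPM in the negative group. The synaptic gene SNAP25 was at 3.96 and 2.81 CPM. Of 57 neuronal genes listed, 16 were measured and 24 were at or below 1 CPM in both groups. Of the 16, 3 were at least 1.25-fold higher and 4 lower, against 829 (9.82%) and 568 (6.73%) of all 8439 measured genes, and the median log2 ratio was -0.01, against 0.02 for the table. BASP1, a growth cone protein, was at 266.1 against 188.9 CPM and the tubulin TUBB2B at 11.7 against 8.03 CPM, while the granin SCG2 was at 9.57 against 14.4 CPM and SYT1, a calcium sensor of synaptic vesicles, at 24.7 against 34.2 CPM. VIM, the intermediate filament protein of mesenchymal cells, stood at 7012 and 6740 CPM.

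Of 8439 measured genes other than NEFL, 44 (0.521%) exceeded a 2-fold excess in NEFL-positive cells and 24 (0.284%) a 2-fold deficit, on log2 of CPM with 1 CPM added. The middle 90% of all measured genes lay between log2 ratios of -0.36 and 0.44, so most of the transcriptome was alike and a small set of named genes stood out. The scatter of group levels shows them outside the 2-fold lines.

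**Figure D1:**
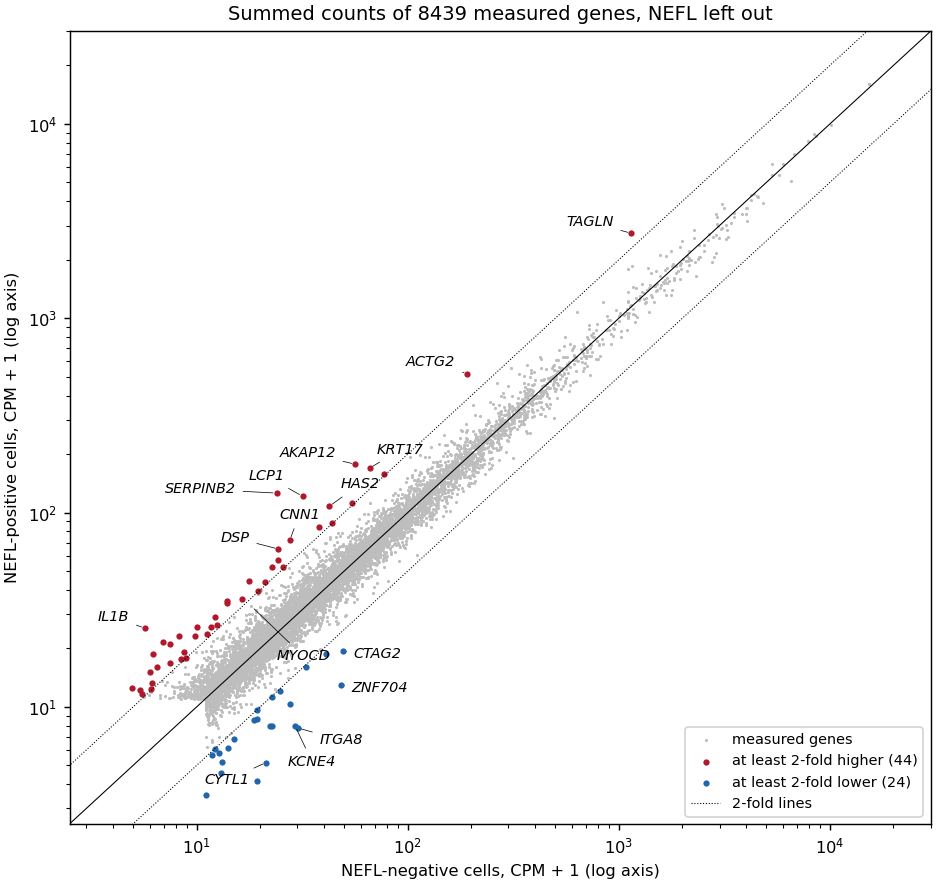
Each point is 1 of 8439 measured genes, with its CPM + 1 in the 1062 NEFL-negative cells (x axis, log) and in the 402 NEFL-positive cells (y axis, log). The solid line marks equality and the dotted lines a 2-fold difference, past which 44 genes are coloured as higher and 24 as lower. MYOCD is labelled inside the lines.

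SERPINB2 showed the largest excess of the genes at 20 CPM or more. It lies at chr18:63871692-63903890 on the plus strand and stood at 124.9 CPM (120 to 130) in NEFL-positive and 22.9 CPM (21.5 to 24.4) in NEFL-negative cells, a ratio of 5.45 (5.05 to 5.88). At 10000 UMIs per cell it was seen in 41.0% of positive cells (36.2 to 46.0) and 9.89% of negative cells (8.16 to 11.8). The 90th percentile of the thinned cells was 3 UMIs in the positive and 0 in the negative group, and the median was 0 in both. Without thinning the shares were 64.7% and 18.5%. CMO306 cells had it in 1.76%, so both thinned shares were above that background. The CMO304 cells of the same capture had it in 22.03% after thinning and at 44.61 CPM, more than the NEFL-negative cells. The part of free RNA from the CMO304 cells in the SERPINB2 counts of Hs578T was not tested. The NEFL groups overlapped, since most thinned cells of both had none.

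ACTG2 and CNN1 had similar ratios at different levels. ACTG2 (chr2:73892314-73919865, plus strand) was at 517.6 CPM (507.5 to 527.8) in positive and 190.8 CPM (186.6 to 195.0) in negative cells, a ratio of 2.71 (2.63 to 2.79). Thinned cells had a 10th percentile, median and 90th percentile of 1, 4 and 10 UMIs in the positive group and 0, 1 and 5 in the negative group. CNN1 (chr19:11538717-11550323, plus strand) was at 70.97 CPM (67.27 to 74.82) and 26.6 CPM (25.05 to 28.22), a ratio of 2.67 (2.46 to 2.89), and was seen in 38.3% and 17.4% of thinned cells. ACTG2 was detected in 90.8% of positive and 64.3% of negative thinned cells, and CNN1 in 66.7% and 34.0% without thinning. In CMO306 cells the shares were 6.90% for ACTG2 and 1.21% for CNN1.

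**Figure D2:**
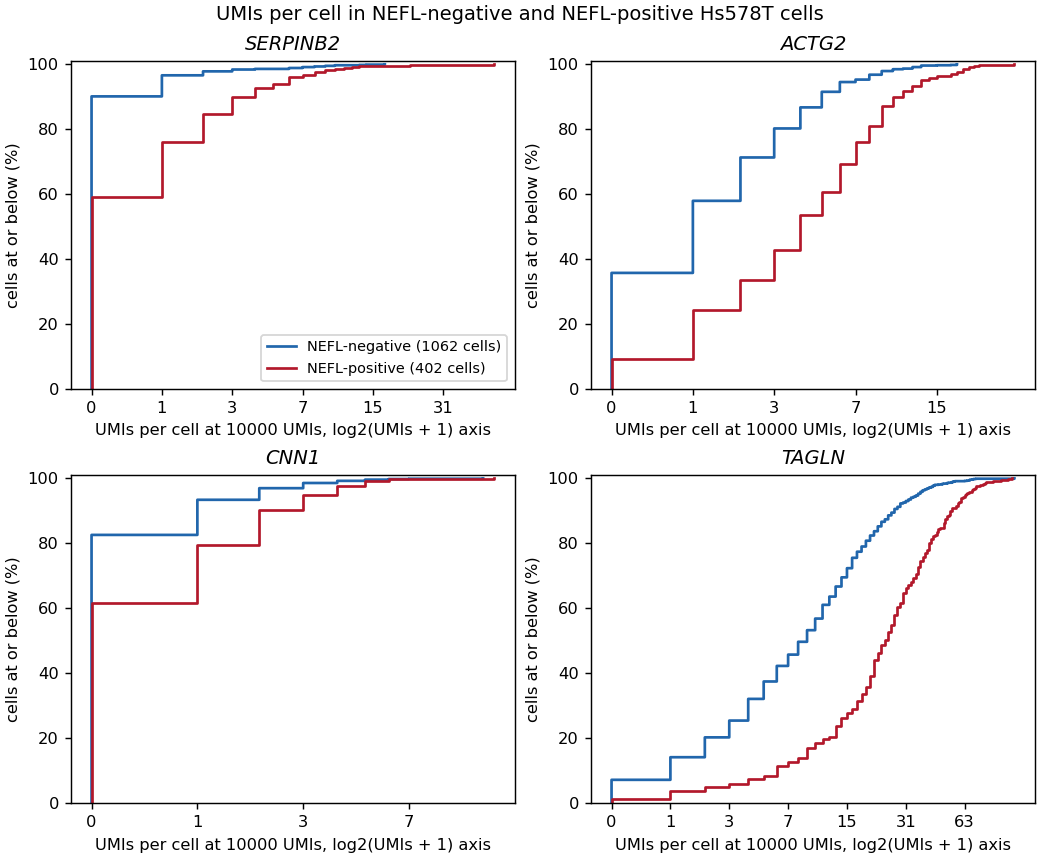
Cumulative share of cells (y axis, %) at or below each number of UMIs (x axis, log2 of UMIs + 1) after every cell was thinned to 10000 UMIs, for 4 genes in 402 NEFL-positive and 1062 NEFL-negative cells. The positive curve lies to the right for each gene; 41.0% of positive and 9.89% of negative cells lie above 0 for SERPINB2, and the medians of TAGLN are 24 and 9 UMIs.

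The contractile genes were higher as a group. Of 54 listed genes 47 were measured, and the 2-fold line was passed by 4 upward (ACTG2, CNN1, TAGLN and SYNPO2) and by 0 downward. The shares over all measured genes were 0.521% and 0.284%. At a lower line of 1.25-fold, chosen after the values were seen, 17 of the 47 were higher and 1 was lower, against 829 (9.82%) higher and 568 (6.73%) lower in the whole comparison. The log2 ratios of the list had a median of 0.26. In thinned cells the list summed to a median of 239.5 UMIs in positive cells (quartiles 202.25 and 292) and 179 in negative cells (quartiles 144 and 220.75). TAGLN, which like the further genes named here outside the naming rule was chosen after its value was seen, was at 2737 CPM (2714 to 2760) and 1144 CPM (1134 to 1154), a ratio of 2.39 (2.36 to 2.42). Its thinned 10th percentile, median and 90th percentile were 6, 24 and 53 UMIs in positive and 1, 9 and 27 in negative cells.

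SYNPO2, an actin-binding protein of the Z-disc and of stress fibres, stood at 34.1 against 12.9 CPM (ratio 2.65, 2.36 to 2.98). LMOD1 stood at 28.1 against 14.1 CPM (2.00, 1.78 to 2.25). ACTA2 stood at 553.8 against 305.9 CPM (1.81, 1.76 to 1.86), and MYL9, the regulatory myosin light chain, at 1782 against 1101 CPM. The coactivator MYOCD stood at 31.9 against 17.2 CPM (1.86, 1.67 to 2.07), while SRF (20.01 against 18.8 CPM), MRTFA (12.8 against 15.1) and MRTFB (12.03 against 12.3) differed little. MYLK was at 110.1 and 115.4 CPM, and MYH10, a nonmuscle myosin heavy chain, was the lowest of the list at 41.8 against 59.7 CPM. Genes of differentiated smooth muscle were partly absent. MYH11, the smooth muscle myosin heavy chain, had 0.154 and 0.266 CPM, and DES (desmin) had 0 UMIs in the positive group. The excess thus covered part of the contractile list.

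Among the other genes with a large excess were secreted, cytoskeletal and adhesion genes. IL1B, the cytokine interleukin-1 beta, was at 24.4 CPM (22.2 to 26.7) against 4.69 CPM (4.05 to 5.40), a ratio of 5.20 (4.39 to 6.17). LCP1, the actin bundler L-plastin, was at 120.2 against 30.8 CPM (3.91, 3.65 to 4.19), and AKAP12 at 176.3 against 55.3 CPM (3.19, 3.02 to 3.36). IL1B was at 221 CPM and AKAP12 at 304 CPM in the CMO304 cells of the capture, and LCP1 at 259 CPM in the CMO306 cells. Of the other MDA-MB-436 markers, IL13RA2 was at 1.34 against 0.92 CPM, CDKN2A at 3.39 against 4.11, UCHL1 at 8.49 against 8.15 and PRAME at 36.6 against 33.0. The whole list of 5, IL1B included, summed to 74.2 against 50.9 CPM. With doublets and mixed cells left out, all 44 of the higher genes and 23 of the 24 lower genes passed the same line.

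HAS2, which makes hyaluronan, was at 106.7 against 41.5 CPM (2.57, 2.41 to 2.74), although it lies on chromosome 8, whose genes were mostly lower. HNMT, which inactivates histamine, was at 20.6 against 5.92 CPM (3.48, 2.96 to 4.10). The adhesion gene ADAM23 had a ratio of 3.07, the sorting receptor SORT1 of 2.74 and C5orf46 of 2.60. KRT17, a basal keratin with near-identical pseudogenes whose reads cannot be told apart here, was at 168.4 against 65.02 CPM, and the desmosomal DSP at 63.9 against 23.4 CPM. SPANXD, a cancer-testis gene of a family of close copies, had a ratio of 3.12 and is uncertain for the same reason. The largest gains in the share of thinned cells with a UMI included AKAP12 (75.4% against 33.8%), LCP1 (56.5% against 19.2%), LINC01116 (72.1% against 46.8%), SPHK1, the sphingosine kinase (63.4% against 39.2%) and IFI27L2 (52.0% against 31.1%).

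The genes with a large deficit were fewer and expressed at lower levels. ITGA8, the alpha 8 integrin chain, was at 6.79 CPM (5.68 to 8.05) in positive and 29.1 CPM (27.5 to 30.8) in negative cells, 4.29-fold lower (3.58 to 5.17), and was seen in 5.97% and 23.4% of thinned cells. ZNF704, a zinc finger gene, was at 11.98 against 47.2 CPM, 3.94-fold lower (3.44 to 4.53). KCNE4, a potassium channel subunit, was at 6.94 against 28.3 CPM, 4.07-fold lower (3.41 to 4.91). CYTL1, a secreted cytokine-like protein, was at 4.17 against 20.3 CPM, 4.88-fold lower (3.88 to 6.20). Further lower genes of the naming rule were CA8, EBP, CTAG2, LINC00221, RAC2, KHDRBS3, SERTAD4, CRIP2, MGP and MXD3, at log2 ratios from -1.50 to -0.94. CTAG2 belongs to a family of close copies, and its count is uncertain.

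Because NEFL was counted and not merely present or absent, the cells were also divided into 5 bands of NEFL UMIs. Along 0, 1 to 2, 3 to 9, 10 to 29 and 30 or more NEFL UMIs (1062, 247, 201, 138 and 63 cells), CNN1 was at 26.6, 30.7, 49.2, 67.2 and 131 CPM. ACTG2 was at 191, 265, 463, 507 and 672 CPM and TAGLN at 1144, 1524, 2318, 2863 and 3505 CPM. These contractile genes were higher in every successive band, and AKAP12 did the same with 55.3, 87.2, 150, 179 and 235 CPM. SERPINB2 had another shape, with 22.9, 53.5, 151, 95.5 and 119 CPM, highest in the band of 3 to 9 UMIs. ZNF704 was at 47.2, 31.3, 17.1, 9.30 and 4.99 CPM, and CYTL1 reached 0.277 CPM in the top band. The cells of 1 to 2 UMIs, which belong to neither group, lay between the groups for each of these genes except CYTL1, at 21.6 CPM in that band.

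**Figure D3:**
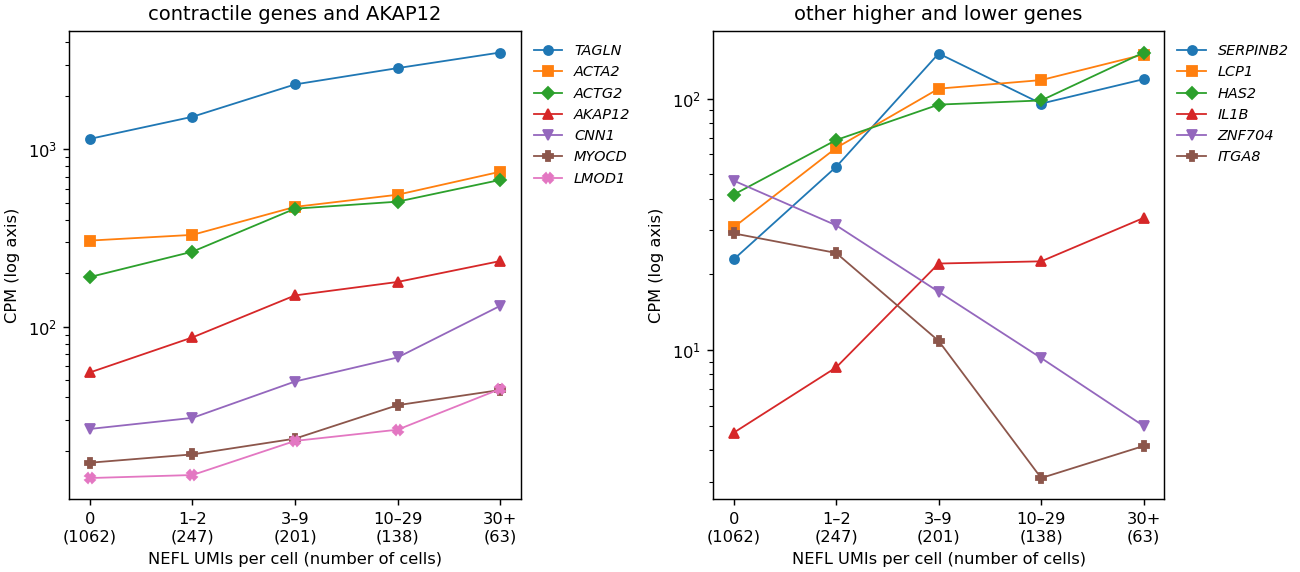
Summed level of 13 genes (y axis, CPM, log) in 5 bands of NEFL UMIs per cell (x axis, with the number of cells), in Hs578T cells. TAGLN goes from 1144 to 3505 CPM and CNN1 from 26.6 to 131 CPM, SERPINB2 is highest at 3 to 9 NEFL UMIs, and ZNF704 and ITGA8 are lower in the NEFL-positive bands.

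The relation was also read from the contractile side. Cells were ranked by their thinned sum of ACTG2, CNN1, TAGLN and ACTA2 into 4 groups of 427 or 428 cells. The share of NEFL-positive cells was 6.07%, 13.6%, 25.7% and 48.7% from lowest to highest. These 4 genes were already known to be higher in NEFL-positive cells of these data. A rise was thus built in, and the shares only describe its size. Within the NEFL-positive cells, how closely SERPINB2 went with the contractile genes depended on the gene and on the split. The 260 cells with a SERPINB2 UMI had 72.3 CPM of CNN1 and the 142 without had 68.1 CPM, a ratio of 1.06 (0.945 to 1.19), while ACTG2 was 1.17-fold (1.12 to 1.22) and TAGLN 1.09-fold higher (1.07 to 1.11). The 268 cells with a CNN1 UMI had 3253 CPM of TAGLN and the 134 without had 1591 CPM, a ratio of 2.05 (2.00 to 2.09), and their SERPINB2 was 1.46-fold higher (1.33 to 1.61). In NEFL-negative cells the ratios of CNN1, ACTG2 and TAGLN by SERPINB2 were 1.65, 1.79 and 1.61, and that of SERPINB2 by CNN1 was 1.87. NEFL-positive cells with a MYOCD UMI had 1.90-fold more CNN1 (1.67 to 2.16) but a SERPINB2 level of 0.759 times that of the others (0.699 to 0.824). Deeper cells are more often counted as having a UMI, and the part of depth in these splits was not tested.

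The higher and lower genes were not spread evenly over the genome. In the first 20 Mb of chromosome 11, 94 of 96 measured genes had log2 ratios above 0, with a median of 0.46. All 60 genes of the first 20 Mb of chromosome 3 were above 0 (median 0.36), as were 181 of 189 between 100 and 200 Mb of chromosome 2 (median 0.28). On chromosome 8, 288 of 343 genes were below 0 (median -0.22), on chromosome 22 190 of 217 (median -0.20), between 120 and 200 Mb of chromosome 3 200 of 220 (median -0.26), and between 100 and 180 Mb of chromosome 5 192 of 221 (median -0.25). These stretches were picked after the values were seen, and DNA copy number was not measured. MRVI1 (36.98 against 18.4 CPM), ILK (196.6 against 113.2 CPM) and TALDO1 (462.1 against 264.1 CPM) are examples from chromosome 11, and OXTR one from chromosome 3. Of the 44 genes at least 2-fold higher, 6 lay in 20 Mb windows with a median of 0.2 or more (13.6%), where 406 of the 8439 measured genes lay (4.81%). Of the 24 lower, 3 lay in windows with a median of -0.2 or less (12.5%), where 633 measured genes lay (7.50%). Both shares exceeded those of all measured genes, but they rest on few genes. The window medians come from the same ratios, called genes included, so the shares are a description. Of the other higher genes, 36 lay in windows between these medians and HAS2 in a window with a median of -0.26. SERPINB2 lay in a stretch with too few measured genes for a window and was not placed. The other 21 lower genes lay in windows between these medians.

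**Figure D4:**
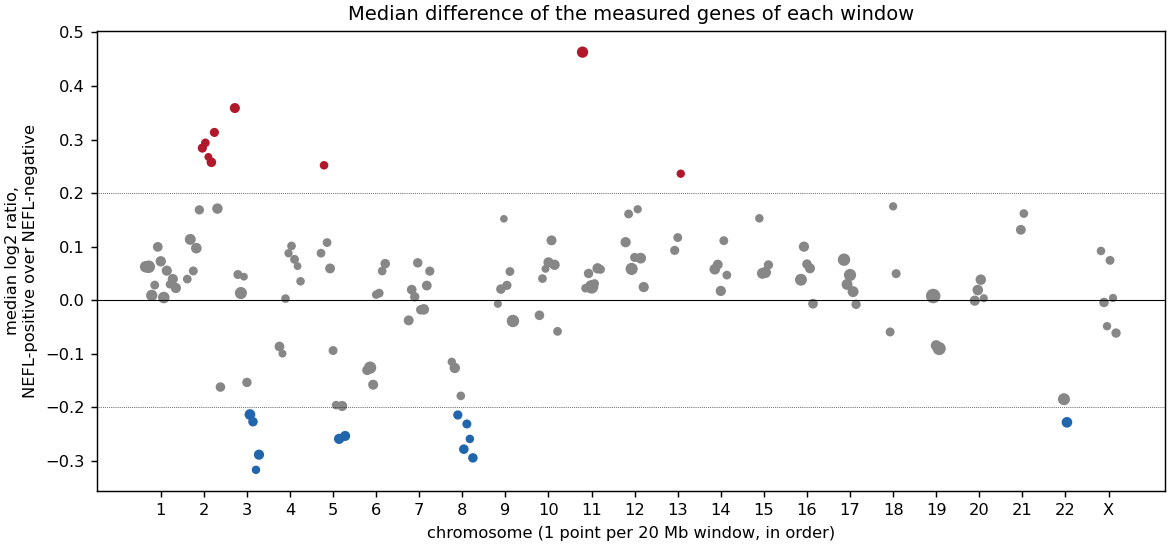
Median log2 ratio (NEFL-positive over NEFL-negative, y axis) of the measured genes of each 20 Mb window, grouped by chromosome (x axis) in order along it, with larger points for more genes. Windows at 0.2 or above are red and at -0.2 or below blue; the first window of chromosome 11 is highest at 0.46.

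Per cell, the 96 genes of the chromosome 11 window held a median of 1.80% of the UMIs in NEFL-positive cells (quartiles 1.61% and 1.92%) and 1.22% in NEFL-negative cells (quartiles 1.15% and 1.33%). The distribution had separate peaks in the histogram, and each NEFL group had cells in both. At a line of 1.5%, drawn after the values were seen, 329 of 402 positive cells (81.8%), 94 of 247 cells with 1 or 2 UMIs (38.1%) and 109 of 1062 negative cells (10.3%) lay at or above it. Of the 532 cells at or above the line 61.8% were NEFL-positive, and of the 1179 below it 6.19%. There were 127 cells from 1.4% to 1.6%. In 5 groups of 342 or 343 cells from lowest to highest share, 4.96%, 4.09%, 5.26%, 39.5% and 63.7% were NEFL-positive.

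In NEFL-negative cells the other stretches differed between the sides of the line as well. NEFL-negative cells at or above the line had medians of 3.83% of UMIs from chromosome 8 and 2.10% from the chromosome 5 stretch, against 4.72% and 2.59% in NEFL-negative cells below it. NEFL-positive cells at or above the line had 3.65% and 2.05%. The 73 NEFL-positive cells below the line did not share the levels of the NEFL-negative cells there. They had medians of 4.23% from chromosome 8, 2.23% from the chromosome 5 stretch and 2.62% from chromosome 22. For chromosome 22 the NEFL-negative cells below the line had 3.02% and the NEFL-positive cells at or above it 2.54%. The NEFL groups below the line thus also differed in these other stretches. The window of chromosome 11 was chosen for its difference between the NEFL groups, so its own separation is a description.

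**Figure D5:**
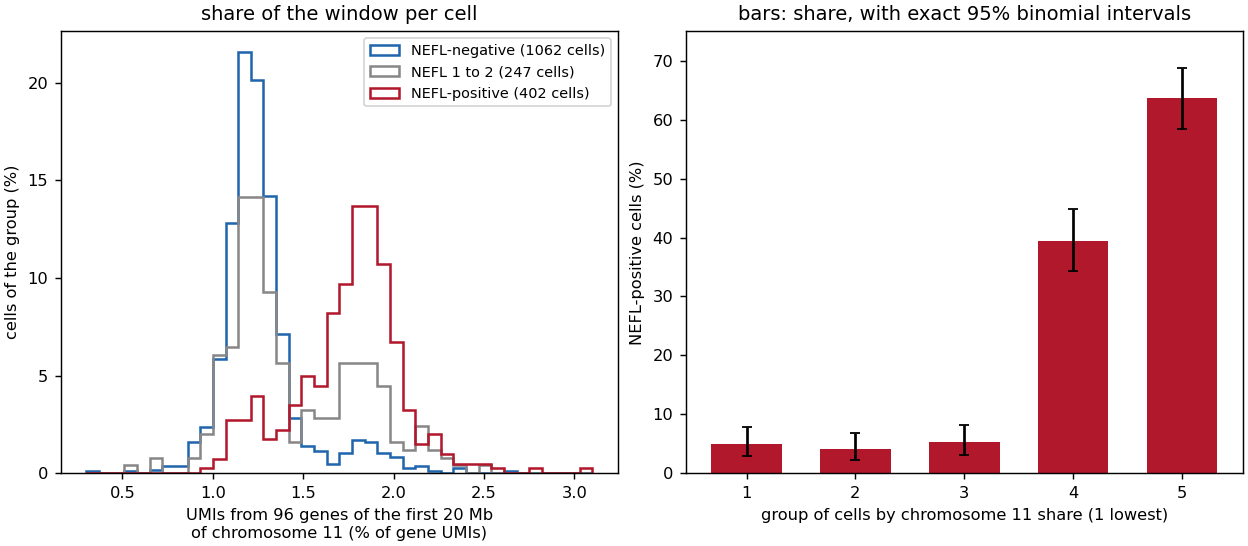
Left, share of UMIs from 96 genes of the first 20 Mb of chromosome 11 (x axis, %) as a histogram of cells in each NEFL group (y axis, % of the group). Right, share of NEFL-positive cells (y axis, %) in 5 groups of the 1711 cells ranked by that share, with exact 95% binomial intervals: 4.96%, 4.09%, 5.26%, 39.5% and 63.7%.

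The marker genes were also compared between the NEFL groups on each side of the chromosome 11 line. The window and the line were picked from these data, and the split does not hold the share fixed. Below the line the median shares were 1.26% in NEFL-positive and 1.21% in NEFL-negative cells. The intervals treat UMIs as independent and leave out the spread between cells, so no ratio here is a test. SERPINB2 differed with the share and, below the line, also with NEFL. Among cells at or above 1.5% it was at 137.8 CPM in NEFL-positive and 134.6 CPM in NEFL-negative cells, a ratio of 1.02 (0.934 to 1.12). In NEFL-negative cells it was 13.5-fold higher (11.8 to 15.4) at or above the line than below it, where it was at 9.98 CPM. Below the line it was at 68.2 CPM in the 73 NEFL-positive cells, 6.83-fold above the NEFL-negative cells there (5.79 to 8.05). The SERPINB2 difference between the NEFL groups was thus small at or above the line and larger below it. The NEFL-negative cells on the upper and lower side had median depths of 35278 and 35581 UMIs.

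HAS2 and OXTR, the oxytocin receptor, showed another pattern. HAS2 was at 108.4 CPM in NEFL-positive and 39.8 CPM in NEFL-negative cells at or above the line, and at 99.2 and 41.7 CPM below it. Its ratios between the NEFL groups were 2.72 (2.32 to 3.20) and 2.38 (2.12 to 2.67), and between the sides of the line 0.955 in NEFL-negative cells (0.811 to 1.12). OXTR had ratios of 2.30 (1.95 to 2.73) and 2.28 (2.01 to 2.58) between the NEFL groups and 0.980 (0.824 to 1.16) between the sides in NEFL-negative cells. Both genes were higher in NEFL-positive cells on either side of the line and did not differ across it beyond counting error.

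The contractile genes differed among themselves, and TAGLN and ACTG2 differed with both NEFL and the share. TAGLN was 1.80-fold (1.75 to 1.84) and 1.87-fold (1.82 to 1.92) higher in NEFL-positive cells at or above and below the line, and 1.48-fold higher (1.44 to 1.52) at or above it within NEFL-negative cells. ACTG2 had ratios of 1.67 (1.58 to 1.77) and 2.07 (1.95 to 2.20) between the NEFL groups, and 1.89 (1.79 to 2.01) across the line in NEFL-negative cells. CNN1 had ratios of 2.46 (2.06 to 2.97) and 1.72 (1.45 to 2.04) between the NEFL groups. Across the line its 1.20 (0.992 to 1.44) in NEFL-negative cells did not exceed counting error, but its 1.71 (1.45 to 2.03) in NEFL-positive cells did. ACTA2 had 1.70 and 1.65 between the NEFL groups and a smaller 1.10 (1.04 to 1.16) across the line in NEFL-negative cells. LMOD1 differed between the NEFL groups at or above the line (2.03, 1.57 to 2.66) and not beyond counting error below it (0.898, 0.647 to 1.22). Across the line LMOD1 did not differ beyond counting error in NEFL-negative cells (1.12, 0.857 to 1.45). In NEFL-positive cells it was 2.54-fold higher at or above the line (1.87 to 3.53).

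KCNE4, among the lower genes, differed between the NEFL groups beyond counting error at or above the line and not below it. There it was at 1.77 CPM in NEFL-positive and 9.08 CPM in NEFL-negative cells, 5.14-fold lower (3.08 to 8.67), while below the line it was at 29.7 and 30.5 CPM. ZNF704 was lower in NEFL-positive cells on both sides, at 0.416 (0.320 to 0.543) and 0.465 (0.369 to 0.579) of the NEFL-negative level. IL1B was higher in NEFL-positive cells on both sides, with ratios of 2.90 (2.07 to 4.18) and 5.10 (3.84 to 6.74). These ratios compare cells of 1 culture, and which cells descend from which was not measured.

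With the cells cut into 3 groups by the share instead, some ratios changed. In the 570 cells of highest share (341 positive and 131 negative) the ratios were 1.22 for SERPINB2 (1.12 to 1.34, at 140.7 against 115.0 CPM), 2.46 for CNN1, 1.75 for ACTG2 and 2.87 for HAS2. At or above the line of 1.5% the SERPINB2 ratio was 1.02. The intervals leave out the spread between cells, so these ratios were not told apart. In the middle group, with 35 NEFL-positive cells, SERPINB2 had a ratio of 4.56 (3.52 to 5.86), at 51.7 against 11.4 CPM. In the 571 cells of lowest share only 26 were NEFL-positive. There CNN1 had a ratio of 0.915 (0.634 to 1.28) and KRT17 of 0.973 (0.765 to 1.22), while SERPINB2 kept 2.93 (1.95 to 4.29) at 25.3 against 8.65 CPM.

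Genes whose proteins sit at the cell surface, which the study set out to find, were taken from a list that is not complete: it lacks ADAM23, SORT1 and NCR3LG1, the ligand of a natural killer cell receptor at 10.6 against 4.50 CPM, all at least 2-fold higher. Of 157 measured genes of the list, 1 exceeded 2-fold upward (OXTR) and 1 downward (ITGA8), against 0.521% and 0.284% of all measured genes. At 1.25-fold, 39 were higher and 19 lower, against 9.82% and 6.73% of all measured genes. The median log2 ratio of the list was 0.12. OXTR was at 83.2 CPM (79.2 to 87.4) against 36.8 CPM (35.0 to 38.7), a ratio of 2.26 (2.11 to 2.43), and was seen in 41.5% and 22.98% of thinned cells. ADAM19, a membrane protease, had a ratio of 2.12 at 16.4 CPM, NOTCH3, a receptor of vascular smooth muscle, of 2.15 at 12.5 CPM, and the cadherin CDH6 of 1.98 at 11.98 CPM. PDGFRA, the alpha receptor for platelet-derived growth factor, was at 25.9 against 46.0 CPM, and the death receptor TNFRSF21 at 43.7 against 79.8 CPM. ANPEP (aminopeptidase N) was at 14.1 against 21.4 CPM, but its log2 ratio turned from -0.57 to 0.38 in the 570 cells of highest chromosome 11 share. ITGA8 had UMIs in 0.418% of CMO306 and 0.238% of CMO304 cells, but it was seen in only 23.4% of NEFL-negative cells at 10000 UMIs.

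Among secreted protease regulators, SERPINB2 was the exception: of 18 measured plasminogen and serpin genes, 1 was at least 2-fold higher. The share over all measured genes was 0.521%. At 1.25-fold, 8 were higher and 4 lower, against 9.82% and 6.73% of all measured genes. TFPI2, a protease inhibitor, was at 18.2 against 9.55 CPM, whereas PLAU, the urokinase that PAI-2 inhibits, was at 33.8 against 49.3 CPM and the thrombin receptor F2R at 10.44 against 15.7 CPM. Of 28 measured targets of TGF-beta, a cytokine that induces contractile fibroblasts, 5 were at least 1.25-fold higher and 4 lower, with a median of 0.00. HAS2 led that list, and INHBA, an activin subunit, stood at 357 against 202 CPM. Of 27 targets of YAP, 10 were higher and 2 lower at 1.25-fold, with a median of 0.15. ANKRD1 was at 18.3 against 8.87 CPM and IGFBP3 at 217 against 128 CPM, while AXL was at 210 against 268 CPM.

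At 1.25-fold, 9.82% of all measured genes were higher and 6.73% lower. Of 48 measured fibroblast and matrix genes, 10 were at least 1.25-fold higher and 5 lower (median 0.12). Tenascin (TNC) was at 14.2 against 6.62 CPM and decorin (DCN) at 45.8 against 26.7 CPM, and EFEMP1 was the only one at least 2-fold lower, at 4.22 against 12.1 CPM. Of 17 NF-kB and cytokine genes, 5 were higher and 3 lower at 1.25-fold. Their median was 0.23, and -0.01 in the 570 cells of highest chromosome 11 share. CXCL8 was lower, at 25.8 against 41.1 CPM, in the cells in which IL1B was higher. Of 24 interferon genes, 6 were higher and 2 lower at 1.25-fold, with GBP1, a guanylate-binding protein, at 61.9 against 43.0 CPM. The interferon median was 0.17, and -0.09 in the 570 cells of highest chromosome 11 share.

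Genes of mitosis and of sterol synthesis tended to be lower. Of 54 measured G2/M genes, 19 were at least 1.25-fold lower and 1 higher, against 6.73% and 9.82% of all measured genes. The median of the G2/M genes was -0.25. CDC25C, the phosphatase that opens mitosis, was at 13.9 against 23.8 CPM and the kinase NEK2 at 28.1 against 44.9 CPM. The G2/M median was 0.05 in the 570 cells of highest chromosome 11 share and 0.26 among cells with a low share of cell-cycle UMIs, where few G2/M transcripts remain by construction. The 46 G1/S genes had a median of -0.06. Of 29 genes of cholesterol and fatty acid synthesis, 10 were at least 1.25-fold lower and 1 higher, with a median of -0.20 and of 0.08 in the 571 cells of lowest chromosome 11 share. EBP, a sterol isomerase, was at 6.94 against 21.3 CPM and SQLE, which makes squalene epoxide, at 189 against 313 CPM. SQLE lies on chromosome 8.

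At 1.25-fold, 6.73% of all measured genes were lower and 9.82% higher. Of 34 genes of the unfolded protein response, 7 were at least 1.25-fold lower and 2 higher (median -0.16). DNAJB11 (95.04 against 145.6 CPM) and CRELD2 (83.5 against 127.4 CPM) led them, and these lie on chromosomes 3 and 22. Ribosomal protein genes had a median of -0.11 over 82 genes, with 8 lower and 3 higher at 1.25-fold. Of 26 metallothionein and NRF2 genes, 8 were lower and 3 higher, with AKR1C2 at 3.55 against 12.02 CPM and its close copy AKR1C1 at 257 against 380 CPM. Reads shared by the AKR1C copies cannot be told apart here.

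The medians of the remaining lists were close to level, from -0.14 (cyclins and cell-cycle inhibitors) to 0.08 (epithelial genes). The epithelial median hides its upper members. Of the 11 genes measured there, KRT17 and DSP passed the 2-fold line upward, where 0.521% of all measured genes did. At 1.25-fold, 4 of the 11 were higher and 1 lower, against 9.82% and 6.73% of all measured genes. Elsewhere in the remaining lists, CRYAB, a small heat shock protein of muscle, was at 51.4 against 24.8 CPM. SOX9, a transcription factor of cartilage and progenitor cells, was at 11.7 against 20.2 CPM. The early response genes EGR1 (26.7 against 44.5 CPM) and FOS (35.0 against 56.4 CPM) were lower, and DUSP1 (46.2 against 32.8 CPM) was higher. EGR1 had a log2 ratio of 0.36 in the 571 cells of lowest chromosome 11 share. The 13 mitochondrially encoded genes had a median of 0.05.

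Among markers of other cell types, the immune list hardly differed, while EGFL7, the only measured endothelial gene, was higher in NEFL-positive cells. Of 11 immune genes 9 were at or below 1 CPM in both groups, with PTPRC at 0.0514 and 0.121 CPM, and CD68 was at 31.6 and 31.1 CPM. The immune list summed to 33.1 and 32.0 CPM. Of 8 endothelial genes, CDH5, VWF and CLDN5 had no UMI in either group, PECAM1 was at 0.566 and 1.18 CPM, EGFL7 at 16.9 and 10.5 CPM (log2 ratio 0.63, between 0.40 and 0.88 over the other settings), and the list summed to 19.7 and 15.3 CPM. The HCC38 markers summed to 23.5 and 26.6 CPM. The 7 Hs578T markers were measured in both groups and summed to 2629 and 2314 CPM.

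The same split in the CMO304 cells gave a different set of genes. In the 158 NEFL-positive and 1321 NEFL-negative cells there, 5 of 8397 genes (0.0595%) passed the 2-fold line upward and 5 (0.0595%) downward. ACTG2 was the only gene at least 2-fold higher in both lines, at 10.98 against 4.63 CPM in the CMO304 cells, which is near its CMO306 level of 10.6 CPM. SERPINB2 and CNN1 had log2 ratios of -0.49 and -0.02 there. The Hs578T cells of the capture carry both transcripts, and the part of their free RNA in the CMO304 split was not tested.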

How the data were processed

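The authors deposited raw UMI counts of 36601 genes and 12 oligos in 17605 barcodes. Per the file headers the matrix came from Cell Ranger 6.1.2, and per the submitters' processing notes the genome was GRCh38. The sources used here do not state how cells were called and assigned to oligos. From the deposited barcodes, those with suffix 5 (CMO305) were kept at 10000 or more gene UMIs (2008 of 2288), at most 20% mitochondrial UMIs (1953) and with CMO305 at 80% or more of the oligo UMIs (1711). The median of CMO305 among oligo UMIs was 93.5% in NEFL-positive and 93.3% in NEFL-negative cells. Doublets were marked with Scrublet in scanpy 1.11.5 (140 of 7816 barcodes of the capture, 1.79%) and kept unless stated. A cell was marked as mixed where the summed share of 50 genes specific to another line reached 25% of the median of that line.

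Counts were summed per group and scaled to CPM. Groups held 19.4 M and 41.4 M UMIs. Log2 ratios used a pseudocount of 1 CPM, printed ratios none. Intervals are exact Poisson (CPM), Clopper-Pearson (shares) and conditional binomial (ratios), and floors are 3 counts. For shares, cells were thinned to 10000 UMIs with a fixed seed. Positions came from GENCODE v29 by gene ID (34616 matched), and promoters from RefSeq. No source used here states the strand setting of the counting, so overlapping and antisense genes are uncertain. The steps were tested on simulated data. Python 3.11.15, numpy 2.4.6, scipy 1.17.1 and pandas 2.3.3 were used. Named genes were set by a rule (the 4 markers, the 15 highest and 15 lowest genes at 20 CPM or more, the 2 highest and 2 lowest of each list and 4 for surface genes, the 10 largest share differences each way, and defining markers) and, where stated, by later picks (also MYL9, SRF, MRTFB, the other neurofilament chains, VIM, MYLK, ILK, MRVI1 and ACTA2). Some genes that the rule names are not reported here. Members and lists were chosen with earlier results of these data known.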

Additional observations from a re-analysis of the deposited data

How the results depend on the processing

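With the same culture and capture in both groups there were no replicates to leave out. No paired analysis was possible because the result comes from no test and the labels give no replicates. The 44 higher and 24 lower genes became 22 and 6 with NEFL-positive cells counted from 1 UMI, 81 and 45 with cells thinned and split by their thinned NEFL, 22 and 9 at a pseudocount of 5 CPM, and 108 and 43 with no filter on low counts. Lower genes numbered 41 from 10 NEFL UMIs, and higher genes 72 with CMO305 at 95% or more. Of the added settings, chosen after seeing the data, the 570 cells of highest chromosome 11 share gave 16 and 10 genes, of which 9 and 6 were among the original ones, the 571 of lowest share gave 38 lower genes, and the CMO304 cells gave 5 and 5. A trimmed mean scaling gave 38 higher genes, all 38 of them among the original 44, and kept all 24 lower genes. Of 132 named genes at least 1.25-fold apart, signs turned for 14 in those 571 cells, among them LMOD1 (-0.78), PLAU (0.43), EGR1 (0.36), CNN1 (-0.12), KRT17 (-0.0386) and SQLE (0.0778), and for 6 in the 570, among them ANPEP (0.38). In the CMO304 cells they turned for 42 of the 86 such genes with 10 CPM or more there, among them GBP1 (-0.70), IGFBP3 (-0.56) and TFPI2 (-0.34). Over genes of any level there, the turned genes included CRIP2 (0.0965), MXD3 (0.0964) and, among genes at least 2-fold apart in Hs578T, SERPINB2 (-0.49), CNN1 (-0.0211), SPANXD (-0.17), AKAP12 (-0.0598), ZNF704 (0.0801), CA8 (0.54), EBP (0.24), LINC00221 (0.30) and RAC2 (0.0724), on the log2 scale, and the cause was not tested. Over the settings planned, the log2 ratio lay between 1.91 and 2.44 for SERPINB2, 1.15 and 1.58 for ACTG2, and 1.05 and 2.03 for CNN1. Depth limits the genes near 10 CPM and the 26 NEFL-positive cells among the 571 of lowest share.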

Other observations

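In the CMO304 cells, HIST1H2AA was at 17.4 CPM in the 158 NEFL-positive and 0.207 CPM in the 1321 NEFL-negative cells, a log2 ratio of 3.93, and the matrix metalloproteinase MMP1 was at 11.6 against 54.2 CPM. Other genes at least 2-fold apart there were S100A4 (58.6 against 28.5 CPM), CCND2 (29.9 against 13.7 CPM) and MMP3 (4.82 against 15.9 CPM). These genes were chosen after their values were seen.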
